A study of Homo sapiens with 3 samples.

Results

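The miR-125 family and the related miR-99 and miR-100 miRNAs were examined in MV4-11 cells. Among the members that had a row, the chromosome 19 copies, miR-99b and miR-125a, carried nearly all of the reads. The members were a small part of the whole: their listed arms together made up 0.0364%, 0.0432% and 0.0483% of mature counts in replicates 1, 2 and 3. The set was chosen by name, not by level, although earlier results of these data were known. It takes in the hairpins hsa-mir-125a (here mir-125a), mir-125b-1, mir-125b-2, mir-99a, mir-99b and mir-100, and every mature arm cut from them. Of these 6 hairpins, 5 had a row among the 661 primary transcripts listed, and of their 11 mature arm names, 6 had a row among the 783 mature names listed. mir-125b-1 had no row, nor did miR-125b-5p, miR-125b-1-3p, miR-125b-2-3p, miR-99a-3p and miR-100-3p, and no level is assigned to them. Every row of both tables reached at least 10 counts in at least 1 library.

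MV4-11 is an established human acute myeloid leukemia (AML) line that bears the FLT3-ITD mutation and the MLL-AF4 fusion. The only group consisted of 3 replicate cultures infected with an empty-vector (EV) lentiviral CRISPR-Cas9 construct and grown for 2 weeks, labelled WT in genotype, so all comparisons are between miRNAs within a library or between replicate libraries. It is a single cell line and all 3 cultures carry Cas9, with no culture free of the vector. Counts over mature rows ran from 10991953 to 12694823 per library, and those over hairpins from 11022587 to 12722997. Replicate 1 stood apart from the others: the median mature miRNA was higher than in replicate 1 by 0.48 on the log2 scale in replicate 2 and by 0.57 in replicate 3. All 6 markers of white blood cells had rows (summed 1432948 to 2580485 FPKM, reads per kilobase of feature and per 1000000 counted reads). They were not all high: miR-150-5p had only 7, 11 and 21 counts in replicates 1, 2 and 3 and ranked 649 of 783 mature names. Of 12 markers of red blood cells, liver, muscle, brain, epithelium and stroma, 11 had rows (miR-1-3p as hsa-miR-1), summed 363599 to 458687 FPKM, of which 337017 to 432929 FPKM came from miR-124-3p and miR-9-5p of the brain list.

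MicroRNAs are cut from a hairpin into a 5p and a 3p arm, and the loaded arm finds its targets chiefly through the seed, bases 2 to 8 from its 5′ end. The miR-125 family and lin-4 of nematodes are homologs, and a let-7 hairpin lies between a miR-99 or miR-100 hairpin and a miR-125 hairpin in each of its clusters. miR-125a is known as a regulator of hematopoietic stem cell number, and miR-125b can act as an oncogene in some leukemias when overexpressed. miR-99 and miR-100 are known repressors of MTOR, a kinase that drives cell growth.

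The 5p arms are shown because their shared seeds define the families and their few differences decide whether reads can be told apart. Sequences are from RefSeq on GRCh38.p14, written 5′ to 3′ with the seed in capitals.
miR-125a-5p: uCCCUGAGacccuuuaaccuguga
miR-125b-5p: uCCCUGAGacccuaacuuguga
miR-99a-5p: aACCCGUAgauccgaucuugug
miR-99b-5p: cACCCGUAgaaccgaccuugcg
miR-100-5p: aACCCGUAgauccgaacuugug
miR-125a-5p has 24 bases and miR-125b-5p has 22, and they are identical over their first 13. miR-100-5p and miR-99a-5p differ at 1 of 22 positions, A16U, counted from the 5′ end with the base of miR-100-5p first. A read of one with a sequencing error at that base could be counted for the other. miR-99b-5p differs from miR-100-5p at 4 positions, A1C, U11A, A16C and U21C, none of them in the seed. Among all RefSeq mature miRNAs, 3 share the miR-125 seed (miR-125a-5p, miR-125b-5p and miR-4319), of which only miR-125a-5p had a row, and 3 share the miR-99 seed, all listed.

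The 3p arms with rows are shown for the comparison of arms.
miR-125a-3p: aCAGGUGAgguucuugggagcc
miR-99b-3p: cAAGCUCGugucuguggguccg
Their seeds differ from those of the 5p arms and from each other. miR-99a-3p, which had no row, has the seed of miR-99b-3p.

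The 3 clusters differ in compactness. The files give no coordinates, and positions here are those of GRCh38.p14, whereas the submitters' processing notes name hg19 and mm10. On chromosome 19, MIR99B (chr19:51692612-51692681), MIRLET7E (chr19:51692786-51692864) and MIR125A (chr19:51693254-51693339) lie on the plus strand within 728 bases. In GENCODE 29 they lie in an intron of SPACA6 and overlap exons of SPACA6P-AS, a long non-coding RNA of the other strand. On chromosome 11, MIR100 (chr11:122152229-122152308), MIRLET7A2 (chr11:122146522-122146593) and MIR125B1 (chr11:122099757-122099844) lie on the minus strand over 52552 bases, in introns of MIR100HG. On chromosome 21, MIR99A (chr21:16539089-16539169) and MIRLET7C (chr21:16539828-16539911) lie on the plus strand in introns of MIR99AHG, and MIR125B2 lies on the same chromosome.

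mir-99b was the highest of the hairpins, with 4058 FPKM in replicate 1, 3593 in replicate 2 and 3807 in replicate 3. The mean, 3819 ± 233 FPKM (SD, n = 3), ranked 120 of 661 hairpins. mir-125a had 654, 1927 and 2347 FPKM, a mean of 1643 ± 882 (SD, n = 3), and ranked 148. Replicate 1 was the low library for mir-125a, and the values of mir-99b and mir-125a did not overlap.

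mir-100 of the chromosome 11 cluster had 318, 234 and 238 FPKM from 320, 204 and 220 counts, with a mean of 263 ± 47.6 (SD, n = 3), and ranked 239. mir-99a of the chromosome 21 cluster had 29.5, 19.3 and 9.60 FPKM from 30, 17 and 9 counts, and ranked 499. mir-125b-2 of the same cluster was the lowest, with 4.47, 9.28 and 9.70 FPKM from only 5, 9 and 10 counts, and ranked 642. These were 0.393, 0.817 and 0.854 per 1000000 hairpin counts, with Wilson 95% intervals of 0.168 to 0.920, 0.430 to 1.55 and 0.464 to 1.57, which cover counting error only. No mature arm of mir-125b-2 had a row, and since RefSeq gives miR-125b-5p the same sequence from both loci, its 5p reads cannot be told from those of mir-125b-1. mir-99a and mir-125b-2 were not resolved from each other, since the log2 ratio of mir-99a to mir-125b-2 was 2.72, 1.06 and -0.01 in replicates 1, 2 and 3.

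**Figure D1:**
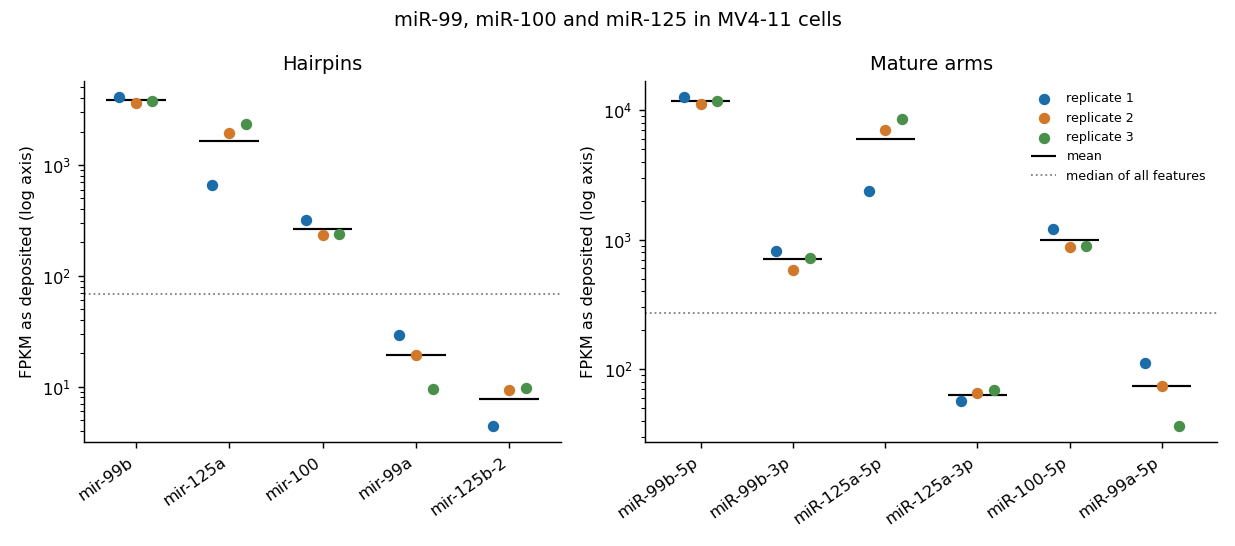
FPKM on log axes of the listed hairpins (left) and mature arms (right), with 1 point per replicate library, a bar at the mean of 3 and a dotted line at the median of all features of the table (68.3 FPKM for hairpins, 269.5 for mature names). mir-99b, mir-125a and mir-100 lie above the line in all libraries, while mir-99a and mir-125b-2 lie below it.

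The chromosome 19 locus was compared with the paralogous loci by summing the FPKM of the listed hairpins of each. mir-99b and mir-125a together had 4712, 5520 and 6154 FPKM in replicates 1, 2 and 3. mir-100 alone stood for chromosome 11, and mir-99a with mir-125b-2 summed to 33.9, 28.6 and 19.3 FPKM for chromosome 21. The ranges of the loci over the 3 libraries did not overlap.

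The chromosome 19 locus exceeded chromosome 11 by 14.8-, 23.6- and 25.9-fold, a mean of 4.38 ± 0.43 on the log2 scale (SD, n = 3). It exceeded chromosome 21 by 139-, 193- and 319-fold, a mean log2 ratio of 7.68 ± 0.60 (SD, n = 3). Chromosome 11 exceeded chromosome 21 by 9.38-, 8.20- and 12.3-fold. All these directions held in 3 of 3 libraries, and each mean was larger than its spread, but an exact two-sided sign-flip permutation test over 3 libraries gave p = 0.25, the smallest it can give. The sum for chromosome 11 rests on 1 of its 2 hairpins of the set, because mir-125b-1 had no row. The sum for chromosome 21 includes 4.47, 9.28 and 9.70 FPKM of mir-125b-2 in replicates 1, 2 and 3. Any 5p reads among these cannot be told from those of mir-125b-1, so that sum is not strictly specific to its locus. Of the FPKM of all 5 listed hairpins, chromosome 19 held 94.8% ± 1.57, chromosome 11 held 4.68% ± 1.40 and chromosome 21 held 0.488% ± 0.185 (SD, n = 3).

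**Figure D2:**
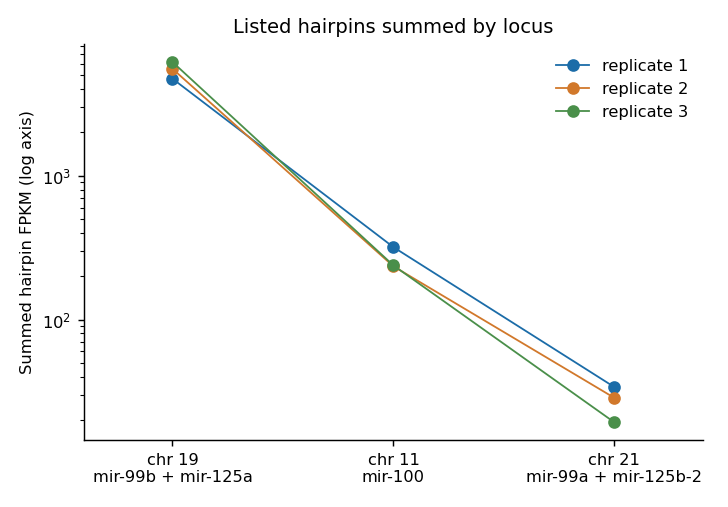
Summed FPKM of the listed hairpins of each locus on a log axis, with 1 line per replicate library. In all 3 libraries the order was chromosome 19, then 11, then 21, from 4712 to 6154 FPKM down to 19.3 to 33.9 FPKM.

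The same order held between mature 5p arms with a common seed, which are compared here because they can recognise the same target sites. miR-99b-5p had 12548, 11253 and 11818 FPKM, a mean of 11873 ± 650 (SD, n = 3), and ranked 127 of 783 mature names. miR-100-5p had 1200, 884 and 897 FPKM, a mean of 993 ± 179 (SD, n = 3), and ranked 288. miR-99a-5p had 113, 73.6 and 36.7 FPKM, a mean of 74.3 ± 37.9 (SD, n = 3), and ranked 577. The ranges of these 3 miRNAs did not overlap. miR-99b-5p thus made up 91.8% ± 1.12 of the FPKM of the miR-99 seed, miR-100-5p 7.64% ± 0.886 and miR-99a-5p 0.567% ± 0.264 (SD, n = 3).

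All pairs of mature miRNAs with the same seed were tested within libraries, 175 pairs of 165 names, with the quasi-likelihood test of edgeR on counts. A pair was called at a Benjamini-Hochberg adjusted p under 0.05 and an absolute log2 ratio of at least 1, which 80.6% of pairs met. The 3 pairs among miR-99a-5p, miR-99b-5p and miR-100-5p were all called, a share close to that background. miR-100-5p was lower than miR-99b-5p, at -3.59 ± 0.17 on the log2 scale (SE derived from the edgeR F statistic, adjusted p = 2.1e-06). miR-99a-5p was lower than miR-99b-5p, at -7.35 ± 0.33 (adjusted p = 1.7e-06), and 15.4% of all seed pairs differed by more. miR-100-5p was higher than miR-99a-5p by 3.79 ± 0.35 (adjusted p = 6e-05). Each direction was seen in 3 of 3 libraries. miR-125a-5p could not be set against miR-125b-5p, which had no row. The nearest measure was that of the hairpins, where mir-125a exceeded mir-125b-2 by 146-, 208- and 242-fold in replicates 1, 2 and 3. These ratios rest on only 5, 9 and 10 counts of mir-125b-2, with no arm listed, and leave out mir-125b-1. They do not stand for the ratio of the mature arms.

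**Figure D3:**
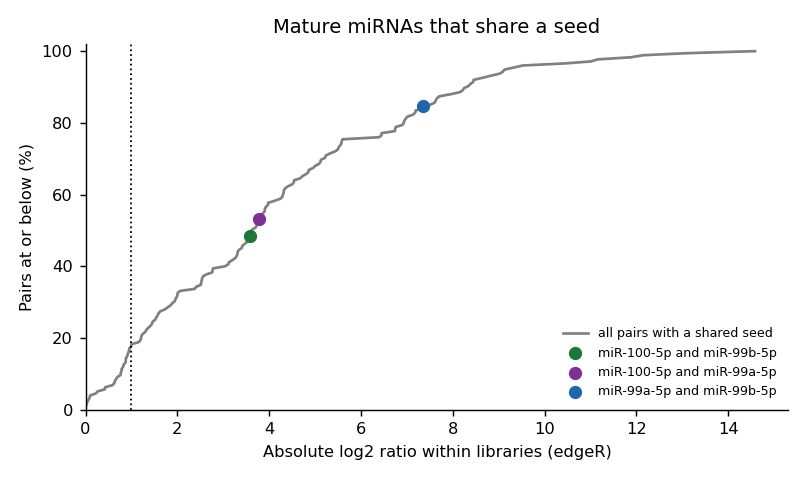
Cumulative share of the 175 pairs of mature miRNAs with a common seed (y axis, percent) against the absolute log2 ratio of the pair within libraries (x axis, edgeR), with the dotted line at the minimum of 1 for a call. The pairs of miR-100-5p lie near the median pair, at 3.59 and 3.79, and miR-99a-5p with miR-99b-5p lies at 7.35.

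Both chromosome 19 hairpins were dominated by their 5p arm. miR-99b-3p had 217, 135 and 178 counts against 3346, 2598 and 2900 of miR-99b-5p, and its mean of 708 ± 116 FPKM (SD, n = 3) ranked 316. miR-125a-3p had 15, 15 and 17 counts against 689, 1785 and 2313 of miR-125a-5p, with a mean of 63.5 ± 6.64 FPKM (SD, n = 3), and ranked 607. miR-125a-3p overlapped miR-99a-5p in level and was not resolved from it.

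Among 196 hairpins with both arms listed, 81.1% of pairs were called by the same edgeR test, and 40.3% of pairs were called with 5p the higher. Both member pairs were called with 5p the higher. miR-99b-5p exceeded miR-99b-3p by 4.08 ± 0.27 on the log2 scale (SE derived from the edgeR F statistic, adjusted p = 5.5e-05). miR-125a-5p exceeded miR-125a-3p by 6.38 ± 0.47 (adjusted p = 7.5e-05). Each direction was seen in 3 of 3 libraries. In FPKM the 5p arm of miR-99b was 15.4-, 19.2- and 16.3-fold the 3p arm, a narrow range. That of miR-125a was 41.9-, 109- and 124-fold, with replicate 1 well below the others. Between the loci's own 3p arms, which differ in sequence, miR-99b-3p exceeded miR-125a-3p by 3.47 ± 0.35 on the log2 scale (SD, n = 3), in 3 of 3 libraries.

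The hairpins of chromosomes 11 and 21 had no listed 3p arm, and the hairpin table showed how many reads were left for one. All 320, 204 and 220 reads of mir-100 were on miR-100-5p, so 0 of 744 reads were left. A limit of 3 counts allows a share of up to 0.403% (0.938%, 1.47% and 1.36% in replicates 1, 2 and 3). The Wilson 95% upper limits were wider, at 1.19%, 1.85% and 1.72% in replicates 1, 2 and 3. In contrast, miR-99b-3p held 6.09%, 4.94% and 5.78% of mir-99b reads, with Wilson 95% intervals of 5.35 to 6.92, 4.19 to 5.82 and 5.01 to 6.66. The interval of mir-99b lay above both limits of mir-100 in each library, although the 5p arms of both share a seed.

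mir-99a also had 0 of 56 reads off its 5p arm, but this depth allows a share of up to 5.36%. miR-125a-3p held 2.12%, 0.831% and 0.727% of mir-125a reads. Hairpin rows do hold reads off their listed arms, but these were not assigned to an unlisted arm. mir-125a had 17 reads over the 3 libraries outside both of its listed arms. Of 143 hairpins with 1 of 2 single-locus arms listed, 79 had 1 to 9 reads off that arm and 24 had 0. Among the 19 of them with at least 500 reads over the libraries, 3 had 0.

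**Figure D4:**
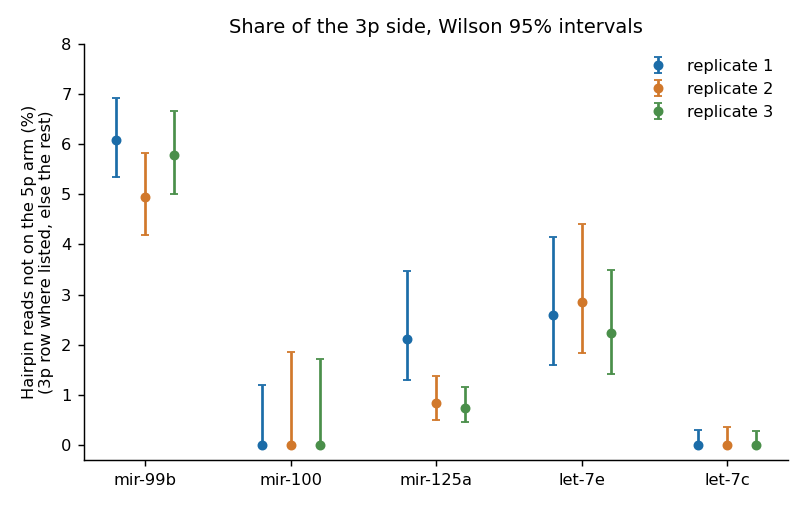
Percent of the reads of each hairpin on the 3p side (the 3p row where listed, otherwise all reads off the 5p arm), with Wilson 95% intervals, per replicate library, for 3 members and the let-7 neighbours let-7e and let-7c. mir-99b lies at 4.94% to 6.09%, whereas mir-100 and let-7c are at 0 in all libraries.

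Within the chromosome 19 cluster, the ratio of miR-99b-5p to miR-125a-5p differed widely between libraries. miR-125a-5p had 2359, 7059 and 8606 FPKM in replicates 1, 2 and 3, a mean of 6008 ± 3253 (SD, n = 3), and ranked 160. miR-99b-5p was 5.32-fold higher in replicate 1 but only 1.59-fold and 1.37-fold higher in replicates 2 and 3, a mean log2 ratio of 1.18 ± 1.07 (SD, n = 3). The direction was the same in 3 of 3 libraries (exact sign-flip permutation p = 0.25, the smallest possible), and without replicate 1, a setting added after the data were seen, the mean log2 ratio was 0.57.

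miR-125a-5p was higher in replicates 2 and 3 than in replicate 1 by 1.58 and 1.87 on the log2 scale, against medians of 0.48 and 0.57 over 781 mature miRNAs. It stood above 88.0% and 88.6% of them in this respect. miR-99b-5p, cut from a hairpin of the same cluster, differed by -0.16 and -0.09, and was above only 22.3% and 23.6%. The other arm of mir-125a did not follow its partner, since miR-125a-3p differed by 0.21 and 0.30, although it had no more than 17 counts in a library. miR-100-5p differed by -0.44 and -0.42, and miR-99a-5p by -0.61 and -1.62.

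After scaling by the median of ratios, miR-125a-5p was still lowest in replicate 1, at 2743 against 6828 and 7360 scaled FPKM. miR-99b-5p was then highest in replicate 1, at 14587 against 10884 and 10106, as it had been on the deposited scale. The coefficient of variation of miR-125a-5p was 54.1% as deposited and 44.8% scaled, against medians of 25.2% and 21.4% over the 330 mature miRNAs with at least 100 counts in every library. For miR-99b-5p it was 5.47% as deposited and 20.2% scaled. The part of library preparation or of the cultures in these differences was not tested.

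**Figure D5:**
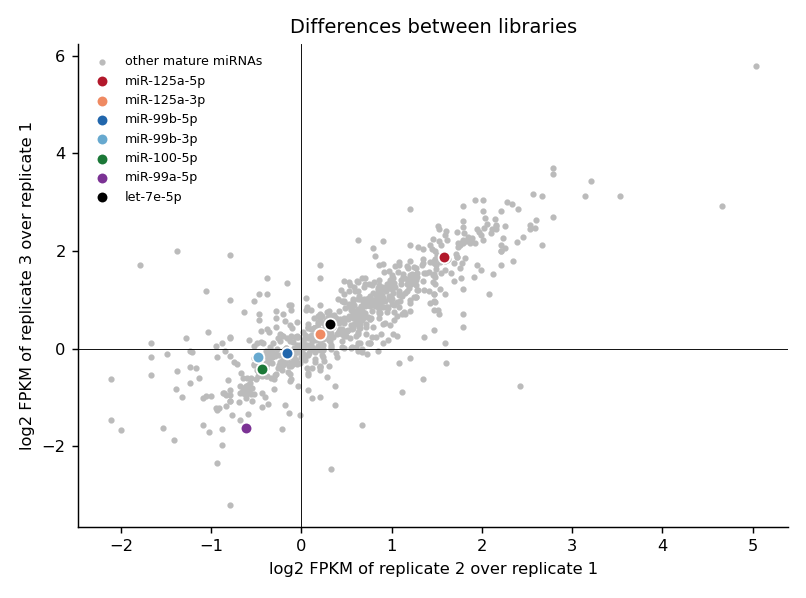
Log2 ratio of FPKM in replicate 2 (x axis) and in replicate 3 (y axis) to replicate 1, for mature miRNAs above 0 in all libraries, with the members and let-7e-5p in colour. miR-125a-5p, at 1.58 and 1.87, lies far from miR-99b-5p at -0.16 and -0.09.

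The let-7 hairpins of the clusters were the fixed set of neighbours. let-7e-5p, from between miR-99b and miR-125a, had 2254, 2802 and 3211 FPKM, a mean of 2756 ± 480 (SD, n = 3). let-7e-5p differs from let-7a-5p at 1 base, U9G with the base of let-7a-5p first, and had 601, 647 and 788 counts against 127874, 116893 and 159217, so reads of let-7a-5p with an error at that base could be part of its level. It was below miR-99b-5p in 3 of 3 libraries, with a mean log2 ratio of -2.12 ± 0.31 (SD, n = 3). Against miR-125a-5p the ratio was -0.07, -1.33 and -1.42 on the log2 scale, so in replicate 1 the levels were nearly equal. let-7e-3p had 16, 19 and 18 counts, close to the 15, 15 and 17 of miR-125a-3p. The 3 hairpins of the chromosome 19 cluster kept the order miR-99b, miR-125a, let-7e in their 5p arms in every library.

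The chromosome 21 cluster had a different order. let-7c-5p had 4744, 4595 and 5697 FPKM and exceeded its neighbour miR-99a-5p by 42.2-, 62.4- and 155-fold, a mean log2 ratio of 6.21 ± 0.97 (SD, n = 3). let-7c-5p also differs from let-7a-5p at 1 base, A19G, and let-7a-5p was at 544905 ± 91012 FPKM (SD, n = 3), so the same limit holds for let-7c-5p. For chromosome 11, let-7a-5p is made from 3 hairpins with 1 mature sequence, and the part that comes from MIRLET7A2 next to MIR100 cannot be told apart.

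Among the 777 mature names outside the set, those nearest to miR-125a-5p in level over the 3 libraries were miR-424-5p, miR-93-3p and miR-628-5p, at root mean square distances of 0.05, 0.12 and 0.22 on the log2(FPKM + 1) scale. miR-424-5p had 2258, 7385 and 8640 FPKM, low in replicate 1 like miR-125a-5p. Those nearest to miR-99b-5p were miR-330-3p, miR-450a-5p and miR-1307-5p, at distances of 0.08, 0.12 and 0.20. miR-330-3p had 12107, 11973 and 12682 FPKM, with little spread between libraries. Such likenesses follow from the choice by distance over these same libraries and are no separate result.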

How the data were processed

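Small RNA libraries (NEB kit, spin-column RNA, Illumina sequencing) were made from 3 EV cultures. The authors counted reads over mature miRNAs and primary transcripts of miRBase release 21 and deposited whole-read counts and FPKM, which they computed per kilobase of feature and per 1000000 counted reads. The submitters' processing notes name Novoalign 2.08.03 and the builds hg19 and mm10. Trimming and the handling of reads that align to several places are not given in the sources used here. Counts divided by FPKM returned whole lengths, 21 for a mature RNA of 22 bases. Libraries hold PCR copies, and ligation depends on sequence, so levels are not molar ratios.

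Rows of a mature name (55 names had several) were summed; no member had more than 1 row. Of 783 names, 679 (86.7%) matched a RefSeq sequence. Arm pairs and seed pairs were tested on counts with edgeR 4.0.16 in R 4.3.3 (library as a block, offset for length and library total), after a check on simulated counts. The SE of an edgeR log2 ratio was derived as its absolute value over the square root of the F statistic. DESeq2 1.42.0 and limma 3.58.1 were alternatives. The test needs both partners to have a row. Other values used Python 3.11.15, numpy 2.4.6, pandas 2.3.3 and statsmodels 0.14.6. Shares have Wilson 95% intervals and a limit of 3 counts where 0 were seen. Named miRNAs were all listed members, their let-7 neighbours, other miRNAs with their seeds, the 3 nearest in level to miR-125a-5p and to miR-99b-5p, and markers of cell types. Members and lists were chosen with earlier results of these data known.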

Additional observations from a re-analysis of the deposited data

How the results depend on the processing

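Of 204 values recomputed under an alternative for 28 results, 202 were counted as kept, 2 moved and 0 reversed. Kept meant the same direction, with the same call or a mean within the spread between libraries. A number of called pairs counted as kept within a fixed factor of the main number. For means, leaving out 1 of 3 libraries cannot pass that spread, and changes of library scale cancel in ratios within a library. The 202 therefore include values that could not have moved. Averaging log2(FPKM + 1) over the hairpins of a locus in place of summing gave a log2 ratio of chromosome 19 over chromosome 11 of 3.16, against 4.38, because the average of 2 hairpins is below their sum. Requiring at least 10 counts in every library left 1 of the 3 seed pairs tested and called, because miR-99a-5p had 9 counts in replicate 3. With one library left out, the log2 ratio of chromosome 19 ranged from 4.22 to 4.63 over chromosome 11 and from 7.36 to 7.96 over chromosome 21. Of 196 arm pairs, 141 to 167 were called under the alternatives that tested them all, and of 175 seed pairs, 135 to 156. The minimum of 10 counts left 148 arm pairs, of which 123 were called, and 145 seed pairs, of which 118 were called. All 5 member pairs stayed called wherever they were tested, with adjusted p up to 0.0023 by edgeR, DESeq2 or limma. Depth limits mir-99a, mir-125b-2 and miR-125a-3p most, with at most 30 counts in any library.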
